A study of Mus musculus with 6 samples.

Results

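Hox genes and the transcription factors that work beside them record where along the body a cell came from, and 48 such genes had values in 6 RNA-seq libraries of cultured mouse aortic smooth muscle cells. They were chosen by symbol alone from 12389 genes: the Hoxa, Hoxb, Hoxc and Hoxd genes, the cofactors Meis, Pbx and Pknox, and the factors with symbols of the Prrx, Tbx, Gata, Hand, Twist, Eya, Six4 and Six5 families. The GENCODE M21 annotation holds 83 protein-coding genes with such symbols. The other 35 had no values and were not analysed here, among them all 9 Hoxd genes, Hoxa9 to Hoxa13, Hoxc11 and Hoxc12. Every gene with values reached at least 142.8 scaled reads (defined below) in some library, so a gene lower than that in all 6 is not seen here.

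Cells were grown out of explanted pieces of thoracic aorta from wild-type mice (WT, 3 libraries) and from mice with a smooth muscle-specific knockout of LRRC8A (KO, 3 libraries), a subunit that volume-regulated anion channels need. All 6 cultures were primary, untreated and used at passage 6 or below. No source used here gives the driver of the deletion, the age, sex or strain of the mice, or the stretch of aorta within the thorax. Because every sample, KO included, has wild type in its genotype field, the groups rest on the titles; the design text calls the 3 of each genotype independent biological replicates.

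Values are scaled reads, that is reads per gene after a scaling of each library, and 3 values in a row are those of replicates 1, 2 and 3. The libraries held an estimated 31.0 to 47.9 M reads, and 1 read was worth 0.712 to 1.185 scaled reads. The targeted gene Lrrc8a had 2578, 2194 and 1221 in the WT cultures and 868, 672 and 506 in the KO cultures, so the KO libraries lay below the WT libraries. Of 12 smooth muscle markers 10 had values, and all 10 had reads in every library, Acta2 from 10651 to 130980 scaled reads and Myh11, a marker of mature cells, from 20.8 (KO replicate 2) to 1656 (WT replicate 3). Their summed level was highest in both libraries numbered 3, at 398210 in WT and 202640 in KO, against 85877 to 94009 in the other 4. The sums rest mostly on Acta2, Cald1 and Tagln. Within each genotype replicate 3 was highest for all 10 except Smtn in WT, where replicate 1 was (3050). Myh11, Lmod1 and Ldb3 in KO replicate 3 (96.8, 538 and 58.4) lay below WT replicate 2 (152, 613 and 67.7).

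As background, mammalian Hox genes lie in 4 clusters, and genes at one end of a cluster are used toward the head while genes at the other end are used toward the tail. Numbered paralogue groups mark the same place in each cluster, so that the highest-numbered gene a tissue uses is an indicator of its axial level. Meis, Pbx and Pknox proteins belong to the TALE class of homeodomain factors and bind DNA together with Hox proteins. The aortic wall draws its smooth muscle from different embryonic sources along its length, with neural crest in the arch and mesoderm of the trunk further down, and cultured vascular cells are known to keep part of their Hox pattern.

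The 3 Hox clusters with measured genes differed in how evenly they were used. Hoxb genes other than Hoxb9 were present at similar levels in all 6 libraries. Hoxa genes were present in all 6 with wider differences, and Hoxc genes were nearly silent in some libraries and abundant in others. The factors of lineage outside the Hox clusters, such as Eya2, Hand2, Tbx1 and Tbx3, also included genes that were at or near 0 in some cultures and abundant in others. Of the 48 genes, 12 had a range over the 6 libraries of at least 4 on the log2(value + 2) scale, a 16-fold span, where 5.1% of all genes did. Those 12 were Hoxc5, Hoxc6, Hoxc8, Hoxc9, Hoxc10, Hoxc13, Eya2, Eya4, Hand2, Gata4, Tbx1 and Tbx3. Of the 46 genes with enough reads to be tested 10 reached it, against 4.9% of all genes tested. The limit of 4 was set after the values were seen, and without KO replicate 3 the count was 8, with 3.58% of all genes. Every gene with values reached at least 142.8 scaled reads in some library. A gene near 0 in most libraries, such as Hoxc10 or Eya2, is therefore included only through its high ones, and its wide range follows from that. The same holds for all genes, so the count is a description and not a test.

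**Figure D1:**
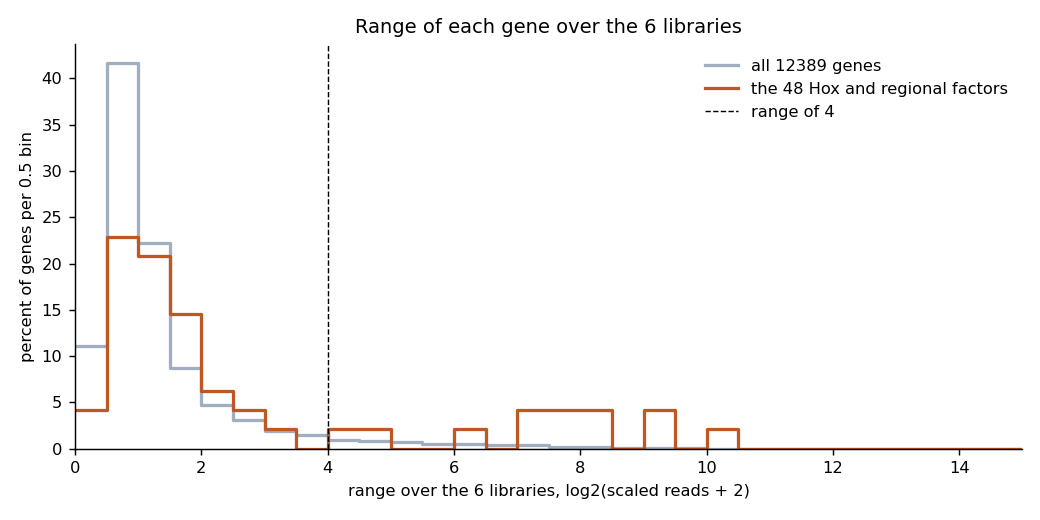
Share of genes (percent per 0.5 bin, y axis) by range over the 6 libraries on the log2(scaled reads + 2) scale (x axis), for all 12389 genes in grey and the 48 Hox and regional factors in orange. The orange line holds 12 genes to the right of the dashed line at 4, and the highest range, 10.14, is that of Hoxc8.

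The Hoxc cluster lies on chromosome 15 (GRCm38), and its measured genes run from Hoxc13 (102921103 to 102928814) at the tail end to Hoxc4 (103018934 to 103036852) at the head end. Hoxc4, the most anterior Hoxc gene measured, had 30.8, 268 and 235 in the WT cultures and 96.3, 250 and 320 in the KO cultures. Hoxc5 had 0, 259 and 351 in the WT cultures and 21.4, 245 and 180 in the KO cultures. Hoxc6, per kilobase of exon the highest Hoxc gene at a mean of 426 scaled reads, had 4.74, 1349 and 1361 in the WT cultures and 106, 1698 and 1639 in the KO cultures. For each of these 3 genes the lowest library was WT replicate 1 and the next lowest KO replicate 1, while the other 4 libraries lay close together. Fewer cells using a gene and less RNA of it per cell cannot be told apart in such bulk libraries.

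The more posterior Hoxc genes followed another order. Hoxc8 had 0, 685 and 66.5 in the WT cultures and 53.5, 292 and 2249 in the KO cultures. Hoxc9 had 0, 46.7 and 0.791 in the WT cultures and 4.28, 10.4 and 1030 in the KO cultures. The single library with much Hoxc9 was KO replicate 3, which was also highest for Hoxc8. Hoxc10 had 0, 28.0 and 0.791 in the WT cultures and 0, 0 and 517 in the KO cultures. Hoxc13, the most posterior Hox gene measured in any cluster, had 4.74, 26.8 and 6.33 in the WT cultures and 0, 12.7 and 498 in the KO cultures. In the other 5 libraries Hoxc9, Hoxc10 and Hoxc13 thus had at most 46.7, and several values lay below the 2.14 to 3.56 scaled reads that 3 reads are worth. Among the WT libraries replicate 2 was the highest for Hoxc8, Hoxc9, Hoxc10 and Hoxc13. Exons of Hoxc5 and Hoxc10 overlap on the same strand in GENCODE M21, so the division of reads between that pair is uncertain.

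**Figure D2:**
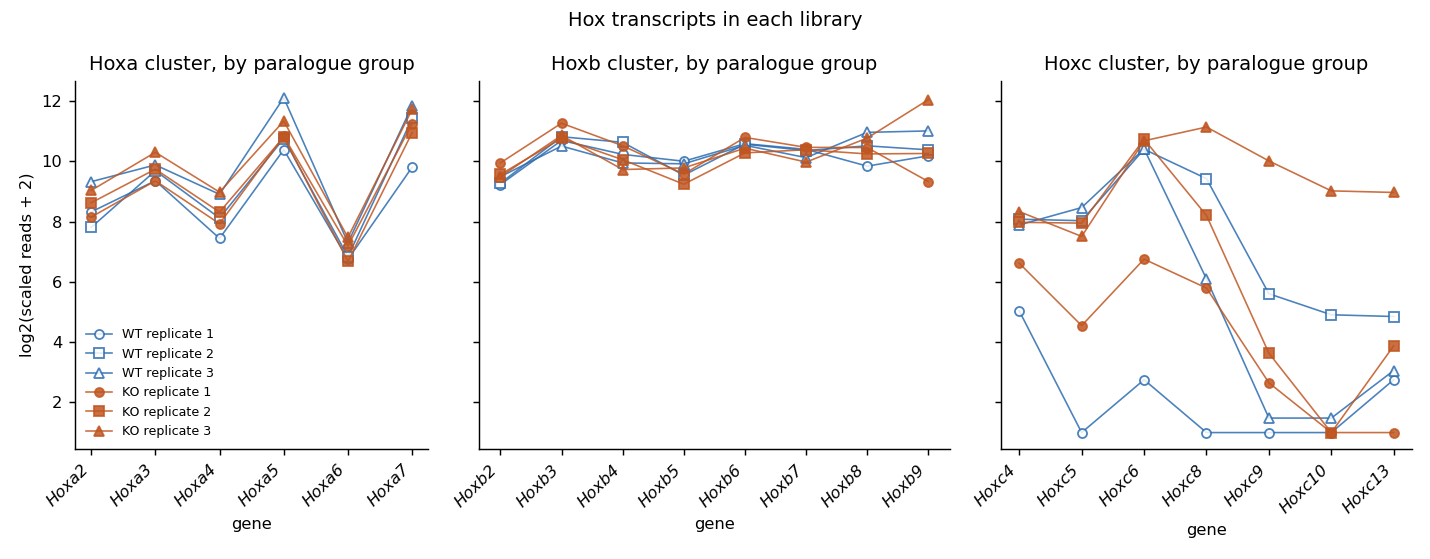
Level of the Hox genes shown (y axis, log2(scaled reads + 2)) in the order of its paralogue group (x axis) for the Hoxa, Hoxb and Hoxc clusters, with 1 line per library, WT in blue with open symbols and KO in orange with filled symbols, and circles, squares and triangles for replicates 1, 2 and 3. The Hoxb lines run together up to Hoxb9, while in the Hoxc panel the circles of both replicate 1 libraries lie low at Hoxc4 to Hoxc6 and the KO replicate 3 triangles stay high to Hoxc13.

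Summed over the 7 measured genes, Hoxc transcripts reached 40.3, 2664 and 2022 in the WT cultures and 281, 2508 and 6433 in the KO cultures. As a share of all Hox scaled reads this was 0.308%, 14.0% and 8.70% in WT and 1.67%, 14.6% and 23.3% in KO. Both replicate 1 cultures had the lowest shares, and a share within a library does not depend on the scaling between libraries. Genes of paralogue groups 9 to 13, counted over all clusters, took 22.7% of Hox scaled reads in KO replicate 3 and 3.82% to 8.89% in the other 5 libraries.

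Genes next to the cluster varied much less. The nearest 3 measured genes on either side, Atf7, Rpl39-ps and Calcoco1 below and Smug1, Cbx5 and Hnrnpa1 above, differed between their highest and lowest libraries by 1.50-fold (Smug1) to 2.72-fold (Rpl39-ps). Calcoco1 had 3864, 4593 and 2386 in the WT cultures and 3604, 3570 and 3197 in the KO cultures. On the log2(value + 2) scale their ranges were 0.59 (Smug1) to 1.42 (Rpl39-ps), around the median of 0.96 over all genes tested. Ranges of that size are thus common among all genes. These neighbours were picked by position after the Hoxc values were seen.

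**Figure D3:**
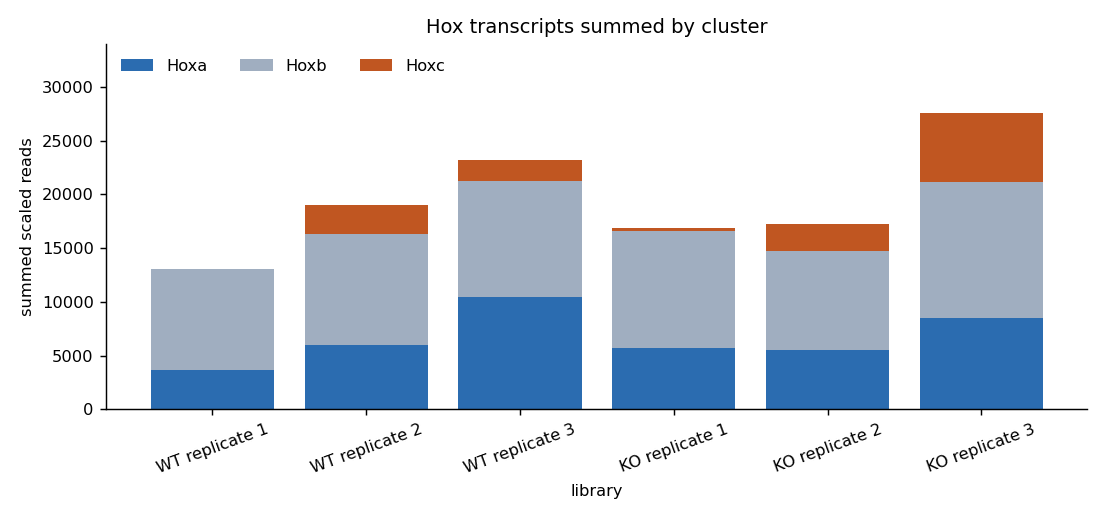
Summed scaled reads (y axis) of the Hoxa (blue), Hoxb (grey) and Hoxc (orange) genes in each library (x axis). The Hoxb part runs from 9159 to 12645 scaled reads, whereas the Hoxc part is 40.3 in WT replicate 1 and 6433 in KO replicate 3.

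Hoxb genes on chromosome 11 had the most even levels of the 3 clusters, with a median log2 range over the libraries of 0.76 against 1.52 for Hoxa and 7.97 for Hoxc. Over all genes tested the median range was 0.96. Hoxb7, per kilobase of exon the highest Hoxb gene at a mean of 811 scaled reads, ranged from 1003 to 1409, and Hoxb6 from 1240 to 1771. Hoxb2, the most anterior Hoxb gene measured, had 598, 617 and 716 in the WT cultures and 984, 754 and 717 in the KO cultures. The 3 KO libraries lay above the 3 WT libraries for Hoxb2, though KO replicate 3 and WT replicate 3 were almost equal. Its log2 fold change, KO over WT, was 0.34 (SE 0.22, adjusted p 0.999 in limma), and 0.20 without KO replicate 1. Hoxb3 had 1650, 1800 and 1451 in the WT cultures and 2457, 1734 and 1853 in the KO cultures. Hoxb3, Hoxb4 (845 to 1582), Hoxb5 (602 to 1023) and Hoxb8 (914 to 1990) all had overlapping groups. Hoxb9, at the posterior end, had 1159, 1331 and 2057 in the WT cultures and 641, 1224 and 4223 in the KO cultures. It was the one Hoxb gene with a wide range, and its highest library was again KO replicate 3.

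Hoxa genes on chromosome 6 had 7 measured members, and all 7 had overlapping groups. Hoxa7 had 892, 2741 and 3664 in the WT cultures and 2437, 1979 and 3373 in the KO cultures. Hoxa5 had 1336, 1726 and 4410 in the WT cultures and 1815, 1788 and 2582 in the KO cultures. Hoxa4 had 172, 275 and 477 in the WT cultures and 242, 317 and 502 in the KO cultures. For Hoxa4, Hoxa5 and Hoxa7 the highest library of each genotype was replicate 3. Hoxa6 had 106, 112 and 155 in the WT cultures and 144, 101 and 176 in the KO cultures. Per kilobase of exon Hoxa5 was the highest Hoxa gene, at a mean of 1213 scaled reads. Hoxa2 (222 to 639) and Hoxa3 (652 to 1258) share exons with a predicted gene on the same strand, so their values may include reads of it.

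The promoters of the Hoxc4 and Hoxb4 genes are shown because this pair belongs to the same paralogue group and yet differed in its evenness, Hoxc4 with a log2 range of 3.30 over the libraries and Hoxb4 with 0.90. Each is the 250 bases before a RefSeq start site on the plus strand (GRCm38.p6), 5′ to 3′, with CpG dinucleotides (CG, the same on both strands) in capitals. The Hoxc4 window is chr15:103034145-103034394, inside the deposited gene, and the Hoxb4 window is chr11:96318017-96318266, ending at its deposited start.
Hoxc4: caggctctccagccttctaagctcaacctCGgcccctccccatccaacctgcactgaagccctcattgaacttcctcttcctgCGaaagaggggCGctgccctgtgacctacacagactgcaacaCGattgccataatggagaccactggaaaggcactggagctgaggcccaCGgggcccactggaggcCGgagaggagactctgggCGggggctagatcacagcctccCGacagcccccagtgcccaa
Hoxb4: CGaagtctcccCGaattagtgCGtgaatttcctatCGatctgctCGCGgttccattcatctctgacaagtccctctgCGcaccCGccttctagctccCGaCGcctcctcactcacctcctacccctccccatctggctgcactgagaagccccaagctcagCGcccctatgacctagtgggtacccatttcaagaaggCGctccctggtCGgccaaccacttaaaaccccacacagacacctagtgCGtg
The Hoxc4 window holds 8 CpG dinucleotides and the Hoxb4 window 14. Of 32851 RefSeq promoter windows of this length, 92.1% hold at least 1, the median is 6, and 43% hold 8 or more and 29.4% hold 14 or more. Of the 48 genes, 24 matched the table by symbol, and their 28 windows had a median of 15 CpG dinucleotides.

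Among the TALE cofactors Pknox2 stood out by genotype. It had 280, 301 and 271 in the WT cultures and 1035, 521 and 868 in the KO cultures. The KO libraries lay above the WT libraries without overlap, with means of 284 ± 15.7 for WT and 808 ± 262 for KO (SD, n = 3 each). Its limma log2 fold change, a KO over WT difference on the log2(value + 2) scale, was 1.45 (SE 0.30) with a p of 0.999 after adjustment, and KO was higher in 3 of 3 same-numbered pairs. Its two-sided exact permutation p was 0.1, which no design of 3 against 3 can go below. The authors' deposited table gives Pknox2 a log2 ratio of 1.51 with a false discovery rate, or FDR, of 0.0112. By FDR the authors' deposited table puts 1 of the 48 genes under 0.05, Pknox2, and 0.525% of all genes. Both fits use the same libraries. Pknox1, its paralogue, ran from 615 to 1261 with overlapping groups.

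The other TALE genes were present in every library. Pbx2 had 1398, 1250 and 1479 in the WT cultures and 1757, 1483 and 1678 in the KO cultures, groups that were parted only by the small step from 1479 to 1483. It shares exons with Gpsm3 on the same strand, and its log2 fold change was 0.25 (SE 0.18). Pbx3 had 314, 477 and 534 in the WT cultures and 323, 355 and 951 in the KO cultures, again with its highest library in KO replicate 3. Meis1 had 997, 1025 and 696 in the WT cultures and 1269, 1093 and 497 in the KO cultures, lowest in replicate 3 of both genotypes. Meis2 ran from 1441 to 4203 and Meis3 from 666 to 1029, both with overlapping groups.

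T-box genes encode regulators of heart, limb and body wall development, and 4 were measured. Tbx3 had 19.0, 102 and 0 in the WT cultures and 538, 166 and 650 in the KO cultures. Tbx15 had 712, 685 and 385 in the WT cultures and 1603, 745 and 900 in the KO cultures. Tbx18, a marker of epicardial and mural lineages, had 981, 987 and 845 in the WT cultures and 520, 806 and 488 in the KO cultures. The KO libraries lay above the WT libraries for Tbx3 and Tbx15 and below them for Tbx18, with WT replicate 2 and KO replicate 2 nearest each other for Tbx3. Tbx1, known from the pharyngeal arches and the outflow tract, had 1.19, 92.2 and 9.49 in the WT cultures and 109, 452 and 80.4 in the KO cultures. Its groups overlapped through WT replicate 2 and KO replicate 3.

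The limma log2 fold changes were 4.58 (SE 1.44) for Tbx3, 3.41 (SE 1.46) for Tbx1, 0.84 (SE 0.37) for Tbx15 and -0.67 (SE 0.255) for Tbx18, each with an adjusted p of 0.999. Each had its sign in 3 of 3 same-numbered pairs, and without KO replicate 1 that of Tbx15 was 0.51. In the authors' deposited table the FDR of these 4 genes ran from 0.356 (Tbx3) to 0.916 (Tbx18). Exons of Tbx3 and Tbx18 overlap antisense genes, as do those of Hand2 and Hoxb3 among others, and whether strand was used in counting is not given in the sources used here.

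**Figure D4:**
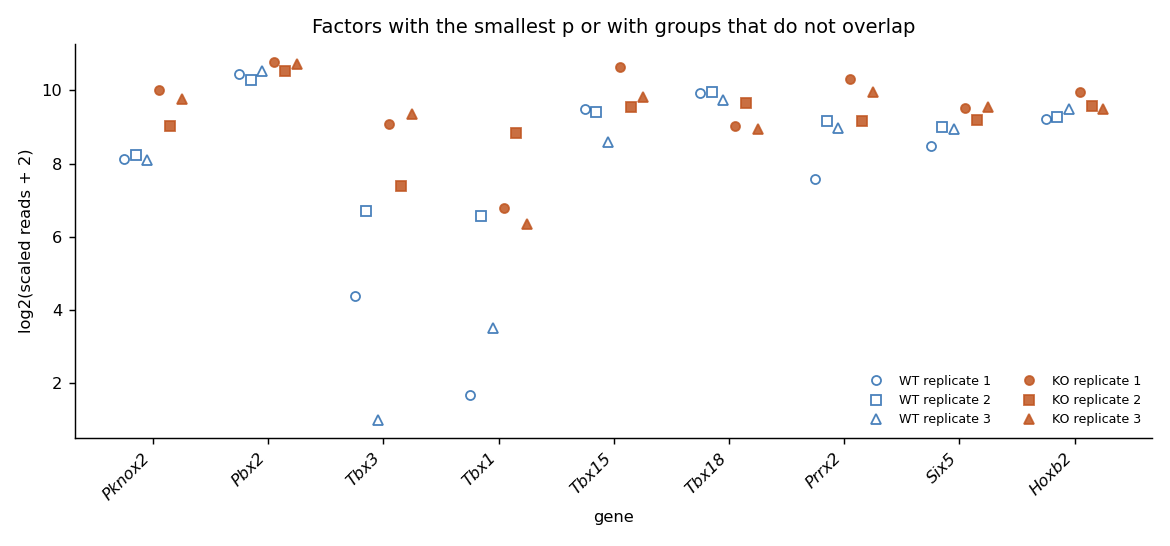
Level (y axis, log2(scaled reads + 2)) of 9 factors (x axis) in each library, WT in blue with open symbols and KO in orange with filled symbols, and circles, squares and triangles for replicates 1, 2 and 3. The 3 KO points lie above the 3 WT points for Pknox2 (521 to 1035 against 271 to 301 scaled reads) and below them for Tbx18.

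Prrx1 and Prrx2 are paired-type homeobox factors of limb and lateral plate mesenchyme. Prrx1 had 5372, 16379 and 26482 in the WT cultures and 8554, 16053 and 18100 in the KO cultures. It was lowest in replicate 1 and highest in replicate 3 of both genotypes, and per kilobase of exon it was the most abundant of the 48 genes, at 1370 scaled reads as the mean over libraries against 1213 for Hoxa5, the next. Prrx2 had 188, 575 and 499 in the WT cultures and 1262, 577 and 997 in the KO cultures. The Prrx2 groups were parted only by the step from 575 in WT replicate 2 to 577 in KO replicate 2. Its log2 fold change was 1.24 (SE 0.49, adjusted p 0.999 in limma), and 0.74 without WT replicate 1.

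Prrx2 and Tbx18 had log2 fold changes of opposite sign, each with an adjusted p of 0.999 in limma, and their windows are shown in the same way. The Prrx2 window is chr2:30845117-30845366 on the plus strand, inside the deposited gene, and the Tbx18 window is chr9:87731261-87731510 on the minus strand, both GRCm38.p6 from RefSeq, 5′ to 3′ with CG in capitals.
Prrx2: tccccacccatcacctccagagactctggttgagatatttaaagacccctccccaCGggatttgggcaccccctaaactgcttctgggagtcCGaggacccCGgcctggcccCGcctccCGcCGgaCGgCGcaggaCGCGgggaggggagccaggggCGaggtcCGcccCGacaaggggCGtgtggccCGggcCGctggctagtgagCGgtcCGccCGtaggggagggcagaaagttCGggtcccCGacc
Tbx18: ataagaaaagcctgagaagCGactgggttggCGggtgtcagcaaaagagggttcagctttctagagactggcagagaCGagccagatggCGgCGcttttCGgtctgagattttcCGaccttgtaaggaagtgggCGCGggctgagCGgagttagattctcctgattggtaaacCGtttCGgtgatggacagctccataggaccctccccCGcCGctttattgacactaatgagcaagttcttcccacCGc
The Prrx2 window holds 21 CpG dinucleotides, a number that 16.3% of all windows reach, and the Tbx18 window 15, which 27.3% reach. Neither holds TGACAG, a TALE factor site, or TGATNNAT, a Hox and Pbx site, both searched on either strand. Of all windows 15.9% hold TGACAG and 7.68% hold TGATNNAT, and of the 28 windows of these genes 4 and 2 do, 1 of them that of Six5, with TGACAG at 105 bases before its start.

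Eya proteins are coactivators that act with DNA-binding partners such as Six4 and Six5. Eya2 had 0, 1048 and 0 in the WT cultures and 1183, 0 and 0 in the KO cultures. It was abundant in 1 culture of each genotype, with different replicate numbers, and it is listed at 0 in the other 4, which allows up to 2.14 to 3.56 scaled reads. Eya4 had 1967, 1104 and 2287 in the WT cultures and 757, 2387 and 97.5 in the KO cultures, with KO replicate 3 far below the other libraries. Eya2 was at 0 there too, while Eya3 lay between 870 and 1257 in all 6 libraries.

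Six5 had 354, 510 and 491 in the WT cultures and 727, 586 and 750 in the KO cultures. All 3 KO libraries lay above all 3 WT libraries, with a log2 fold change of 0.61 (SE 0.245, adjusted p 0.999 in limma). Six4 had 270, 384 and 350 in the WT cultures and 229, 484 and 396 in the KO cultures. Its groups overlapped.

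Gata6, a zinc finger factor of smooth muscle and endoderm, was per kilobase of exon the highest of its family, at a mean of 582 scaled reads, with 4208, 3301 and 2774 in the WT cultures and 4360, 5111 and 2972 in the KO cultures. It was present at similar levels in all cultures. Gata4 had 48.6, 33.8 and 7.91 in the WT cultures and 28.9, 55.5 and 168 in the KO cultures. Gata2 ran from 665 to 2344 with overlapping groups. Per kilobase of exon Gata4 was the lowest of the 48 genes, at 14.6 scaled reads as the mean over libraries.

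Hand2 and the Twist genes encode basic helix-loop-helix factors, Hand2 of heart and branchial arch and Twist of mesenchyme. Hand2 had 322, 231 and 19.8 in the WT cultures and 64.2, 2.31 and 89.5 in the KO cultures. Its groups overlapped through WT replicate 3, which lay below KO replicates 1 and 3. Twist1 had 801, 1199 and 518 in the WT cultures and 1231, 1199 and 700 in the KO cultures, lowest in replicate 3 of both genotypes. Twist2 ran from 827 to 2299 with overlapping groups.

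**Figure D5:**
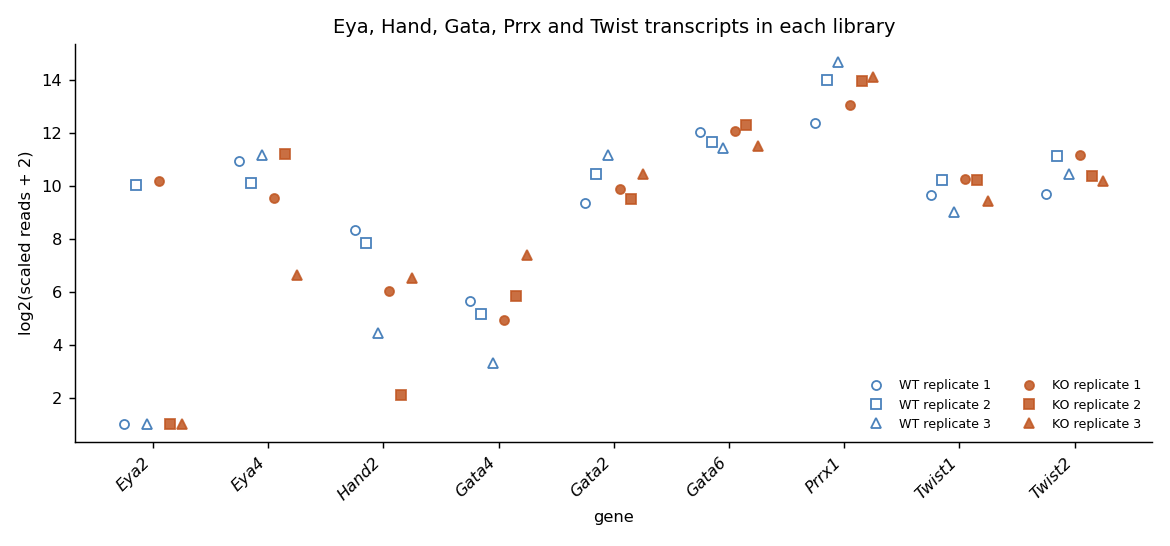
Level (y axis, log2(scaled reads + 2)) of 9 Eya, Hand, Gata, Prrx and Twist genes (x axis) in each library, with symbols by replicate number, WT open blue and KO filled orange. Eya2 is at 1048 scaled reads in WT replicate 2 and 1183 in KO replicate 1 and at 0 in the other 4 libraries, whereas the 6 points of Gata6 lie between 2774 and 5111.

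Across the set, the KO against WT comparison asked whether loss of LRRC8A went with a change in these factors. By limma 0 of the 46 genes tested passed an adjusted p of 0.05, as did 0 of 12363 genes (0%). The targeted gene Lrrc8a did not pass either, with a log2 fold change of -1.51 (SE 0.34) and a limma adjusted p of 0.999. An adjusted p of that size therefore does not show that a gene is unchanged. At an unadjusted p under 0.05 there were 5, Pknox2, Tbx3, Prrx2 and Six5 higher and Tbx18 lower, against 3.62% of all genes, or 1.46% higher and 2.15% lower. With the replicate block, a term for the shared replicate number, 0 passed and 6 had an unadjusted p under 0.05, against 0 and 7.42% of all genes (5 higher, against 3.17%, and 1 lower, against 4.25%), with Tbx1 and Tbx15 added and Prrx2 lost. With weights for library quality 0 of the 46 passed, against 0.243% of all genes, and 9 had an unadjusted p under 0.05, against 18.5%. Of the 48 genes 8 had, in the authors' deposited table, an unadjusted p under 0.05, against 5.3% of all genes. The genotypes did not overlap for 8 of the 46, against 8.43% of all genes: 7 with KO above (3.91% of all genes) and 1, Tbx18, with KO below (4.51%). The median log2 fold change over the 46 was 0.15, with 31 above 0, beside 0.00 over all genes, and it was -0.0030 without WT replicate 1.

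By family, the median log2 fold change was 0.16 over 7 Hoxa genes, 0.00 over 8 Hoxb genes, 0.01 over 8 TALE genes, 0.09 over the 5 tested genes of the Eya, Six4 and Six5 families, 0.15 over 5 Hand, Twist and Prrx genes, 0.26 over 3 Gata genes, 1.30 over the 6 Hoxc genes tested and 2.12 over 4 Tbx genes. All 6 Hoxc genes had a value above 0, from 0.64 (SE 0.90, Hoxc4) to 2.87 (SE 2.31, Hoxc8), yet their groups overlapped. The authors' deposited table gives Hoxc5 a log2 ratio of -0.45 and the other Hoxc genes ratios above 0. The mean of Hoxc5 was 203 in WT and 149 in KO, so its sign depends on the log2 scale. Left without WT replicate 1, the log2 fold changes of Hoxc4, Hoxc5 and Hoxc6 were -0.34, -1.58 and -1.02 and that of Hoxc8 was 0.62. That of Hoxc8 was 1.49 without KO replicate 3 and 4.83 without WT replicate 2. Eya2 and Hoxc10 did not reach a value of 10 in 3 libraries and were not tested.

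The second comparison set replicate numbers against each other across both genotypes, with genotype in the model. At an adjusted p of 0.05 limma passed 0 of 46, against 1.1% of all genes, and 10 had an unadjusted p under 0.05, against 19.1% of all genes. Those 10 were Hoxa4, Hoxa5, Hoxb9, Hoxc4, Hoxc5, Hoxc6, Meis1, Pbx3, Prrx1 and Twist1. Their share is near that of all genes. The smallest adjusted p in limma was that of Prrx1 (0.119), and those of Hoxc4, Hoxc5 and Hoxc6 were 0.142, 0.139 and 0.148. Without WT replicate 3, Hoxb9 passed (limma adjusted p = 0.0483), as did 2.18% of all genes, and without KO replicate 2, Hoxc8 passed (limma adjusted p = 0.0193), as did 1.47% of all genes.

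Other regulators of Hox expression and of aortic lineage were counted from lists. Of 50 genes that act upstream of Hox clusters (Polycomb and Trithorax proteins, retinoic acid receptors and enzymes) 40 were tested, with a median log2 fold change of 0.14 and 28 above 0, beside 6230 above 0 of the 12363 genes tested. An adjusted p of 0.05 was passed by 0 of them in limma and an unadjusted one by 1, Men1, the menin subunit of a Trithorax-type complex, at 0.50 (SE 0.17), where 3.62% of all genes passed an unadjusted p of 0.05 and 1.46% did so with KO higher. The retinoic acid receptors Rarg and Rarb had 0.45 (SE 0.19) and 3.10 (SE 1.63), with unadjusted p of 0.0505 and 0.0976 in limma. Both had KO libraries above WT libraries, though Rarb was low in WT, at 3.59, 26.0 and 1.58. Of the 40, 4 had KO libraries above and 1 had them below, against 3.91% and 4.51% of all genes. Aldh1a2, which makes retinoic acid, had 97.2, 1605 and 9.49 in the WT cultures and 7065, 18.5 and 8300 in the KO cultures. It thus differed widely among the cultures of each genotype, though unlike Eya2 it was at 0 in none, and it was named after its values were seen.

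Of 8 tested neural crest and arch genes 7 had a log2 fold change above 0, with a median of 0.74 and with 2 at an unadjusted p under 0.05, Dlx1 at 3.78 (SE 1.14) and Dlx2 at 0.87 (SE 0.33), homeobox genes of the branchial arches. Dlx1 had 51.0, 25.4 and 1.58 in the WT cultures and 347, 259 and 145 in the KO cultures. Of 6 tested lateral plate and splanchnic genes 4 were above 0, with a median of 0.77 and with 2 at an unadjusted p under 0.05, the nuclear receptor Nr2f2 at 1.06 (SE 0.30) and Shox2 at 2.89 (SE 0.95). Of 4 tested paraxial mesoderm genes 2 were above 0, with Foxc2, which the neural crest list also holds, at 0.52 (SE 0.345), and of 3 tested outflow genes 1, Tbx1. The 2 called genes of each list stand beside the 1.46% of all genes that were higher in KO at an unadjusted p under 0.05, and no gene of these lists passed an adjusted p of 0.05 in limma.

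Marker levels of other cells differed among the same libraries. The 7 of 12 mesothelial and epithelial markers with values summed to 20131, 11126 and 6264 in the WT cultures and 10166, 8601 and 1127 in the KO cultures. All of these but Krt19 were lowest in KO replicate 3, with Krt18 and Cdh1 at 0. Krt19 had 701 there, above WT replicate 2 (440) and WT replicate 3 (146). Krt18 was also near 0 in KO replicate 1 (2.14) and Cdh1 in WT replicate 3 (0.791). The 8 of 10 fibroblast markers with values summed to 20457 to 75753 in WT and 26599 to 63855 in KO, and none of these 8 was at 0. The sum was highest in replicate 1 of each genotype, the libraries with the least Hoxc6. In KO that order rests on Col14a1, and without it KO replicate 2 was the highest of the 6 at 51037. Among the WT libraries replicate 1 stayed the highest without Col14a1, at 41498. The 2 of 9 endothelial markers with values summed to 94.9 to 461 in WT and 116 to 463 in KO. The 4 of 9 leukocyte markers with values summed to 1995 to 2616 in WT and 834 to 1676 in KO. The part of these cells in the Hox, Eya and T-box differences was not tested.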

How the data were processed

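Per the labels' protocols, the stranded poly(A) libraries were sequenced in paired ends. As tools of the authors, the submitters' processing notes list STAR, Partek and DESeq2, with neither version nor role, beside mm39 and GRCm39 as builds. Coordinates are GRCm38: of 12385 deposited genes in GENCODE M21, 12341 have the same start. The deposited per-library values are a scaled signal, not whole counts: 82.0% to 92.4% of values up to 50 reads lie within 0.05 reads of a whole number. The authors' deposited table holds a p-value and FDR, a log2 ratio and a linear ratio, a mean signal per group and a signed fold-change score, of which the last was not used.

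limma 3.58.1 (R 4.3.3, statmod 1.5.0) was fitted on log2(value + 2) for 12363 genes (value 10 or more in 3 libraries or more), with trended and robust priors, two-sided tests and Benjamini-Hochberg adjustment over all genes. 46 of the 48 genes passed that filter. Replicate number was tested with an F test beside genotype. The fits were tested on simulated data without pairing, with changes placed only in genes whose spread was below the median. Recovery of a change in genes as variable as those of Hoxc was therefore not tested. The median gene had a residual SD of 0.36 (log2). Libraries with the same number deviated together, with correlations across genes of 0.43, 0.15 and 0.39, so the numbers were taken to pair them, though no label says what a number marks.

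Some genes of the set are not reported here. Genes and lists were chosen with earlier results of these data known. Values in every library are given for genes with an unadjusted p under 0.05, with groups that do not overlap, with the 10 smallest p for replicate number, at either end of a Hox cluster, or highest or lowest in their family, and for others that the text singles out after their values were seen. Fold changes are given for the first 2 kinds and for Hoxc. From each other list up to 3 genes with the smallest p were eligible. Alternatives were other scalings, filters, pseudocounts and priors, the other per-library table, weights for library quality, a block for replicate number, and each library left out in turn.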

Additional observations from a re-analysis of the deposited data

How the results depend on the processing

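For KO against WT, 0 genes passed under each other scaling, filter, pseudocount, prior and the other table, and with the replicate block 0 passed with 917 at an unadjusted p under 0.05, so that the block changed no call. With library quality weights 30 genes passed, and with the weights and the replicate block 5. The weights without the block stopped before full convergence. Leaving out 1 library gave 0 to 1 genes, the 1 being Glipr1 without KO replicate 1. Of the 46 Hox and regional factors 0 passed under any of these settings. For replicate number 136 genes passed, 0 with priors without trend or robust fitting, 5 with the weights, 45 without a genotype term, and 1 to 278 with 1 library left out, with 1 gene without WT replicate 1 and 1 without KO replicate 1. Of the 46 factors 0 to 1 passed with 1 library left out.

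Of 262 other fold changes of single factors 252 kept their sign. Hoxc9 and Hoxc13 failed the filter when it was stricter and without WT replicate 2, KO replicate 2 or KO replicate 3. They had no fold change there, so the count does not cover their dependence on KO replicate 3, their highest library. With the weights those of Hoxc4, Hoxc5, Hoxc6, Hoxc8, Hoxc9 and Hoxc13 were -0.28, -0.74, -0.40, -0.99, -1.12 and -1.05, and with the weights and the replicate block Hoxc13 was -0.18. With 1 library left out Hoxc4 ran from -0.34 to 1.18, Hoxc5 from -1.58 to 2.15 and Hoxc6 from -1.02 to 2.85. The cause was not tested. Pknox2 ran from 1.24 to 1.73 and Tbx3 from 3.06 to 5.91 when 1 library was left out. With the weights Tbx3 was 1.77, Tbx1 1.81, Prrx2 0.51, Six5 0.36 and Tbx15 0.50, against 4.58, 3.41, 1.24, 0.61 and 0.84 without them. The median over the 46 factors was 0.01 with the weights and turned to -0.0030 without WT replicate 1. Values of a few reads, as for Hoxc9 and Hoxc10 in WT replicates 1 and 3, are limited by depth.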
